A study of Mus musculus with 17 samples.

Results

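Immobilized tibialis anterior muscle of p53 mKO mice was compared with mobile tibialis anterior muscle of control mice, across all genes of a single-colour bead array. The comparison used 6 of the 17 arrays of the series, chosen by their titles, with 3 arrays in each group. The labels do not spell out mKO, which is read here as a muscle-specific knockout from what is known of the study, and the controls were littermates. The mice were males aged 8 weeks, and the muscles were taken on day 3 of immobilization. Both groups are therefore young adult male muscle, and they differ in genotype and in limb immobilization at once. None of the 17 arrays is titled as mobile p53 mKO muscle. The effect of genotype in the mobile limb thus cannot be told apart from the effect of immobilization. A further 3 arrays, from immobile hindlimbs of littermate controls, were set beside them, since these differ from the p53 mKO arrays in genotype alone. The promoter that drives the Cre recombinase is not given in the sources used here. The probe table names no probe for Trp53, which encodes p53, and the knockout was thus not checked at its own transcript.

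A limb held still in a cast or staple loses muscle mass within days. The loss is known to involve the ubiquitin ligases Fbxo32 (atrogin-1) and Trim63 (MuRF1), which mark muscle proteins for the proteasome, and a decline of the genes of oxidative metabolism. p53 is a transcription factor best known for stopping the cell cycle after DNA damage, partly through Cdkn1a, which encodes the inhibitor p21. In skeletal muscle, p53 and the stress factor ATF4 are both known to promote atrophy during immobilization, and both are known to act on Cdkn1a.

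The deposited values are on a log scale, taken as log2, with a floor near 8.21 that compresses the differences of dim genes. A difference of 1 on this scale is a 2-fold change. A gene was called risen or fallen when its adjusted p by limma was under 0.05 over the 10842 genes tested. The transcripts that define muscle were bright in both groups. Bright values near the top of the scale leave less room for differences to show. Tnnt3, a troponin of fast fibres, averaged 15.22 ± 0.06 in mobile control and 15.13 ± 0.06 in immobile p53 mKO muscle (SD, n = 3), and 0 of the 15 muscle identity genes tested were called. On average over the 15 genes the p53 mKO arrays lay slightly below the mobile arrays, at −0.0413, −0.0813 and −0.101 relative to the mobile mean, beside −0.0187, 0.0167 and 0.002. The median difference was 0.02, with 8 genes higher and 7 lower, so most of the genes did not share the lower average. A large fall of Casq1 weighed on that average. Casq1, a calcium-binding protein of fast fibres, measured 13.42, 13.50 and 13.51 on the mobile arrays and 12.55, 12.48 and 11.27 on the p53 mKO arrays, with an adjusted p of 0.0999.

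The p53 mKO arrays were not alike. Over the tested genes, p53 mKO arrays 1 and 2 correlated at 0.9964, whereas array 3 correlated with them at 0.9871 to 0.9879. The array most like p53 mKO array 3 was immobile control array 3, at 0.9969. Arrays 1 and 2 correlated at 0.9966 to 0.9969 with immobile control array 2. The mobile arrays correlated at 0.995 to 0.9966 with each other and at 0.9748 to 0.9851 with the p53 mKO arrays. For some results below the call or count without array 3 is given, and for others only the value on each array.

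Of the 10842 genes, 485 had risen in immobile p53 mKO muscle, which is 4.47%, and 572 had fallen, which is 5.28%. Both directions together made up 9.75%. The counts of each gene group below are to be read beside these shares. Among them 34 rose and 44 fell by 2-fold or more. The groups of arrays did not overlap for any called gene. Over all genes tested, called or not, the 3 p53 mKO arrays all lay above the 3 mobile arrays for 19.5% of the genes and all below for 15.6%. The fit shares its estimate of spread with the immobile control arrays, and the counts depended on single arrays. Without immobile control array 1 there were 878 risen genes, whereas leaving out mobile array 1, 2 or 3 left 279, 158 or 208 and leaving out p53 mKO array 1, 2 or 3 left 282, 269 or 296. The fallen genes numbered 288 without mobile array 2, 335 without mobile array 3 and 344 without p53 mKO array 2.

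**Figure D1:**
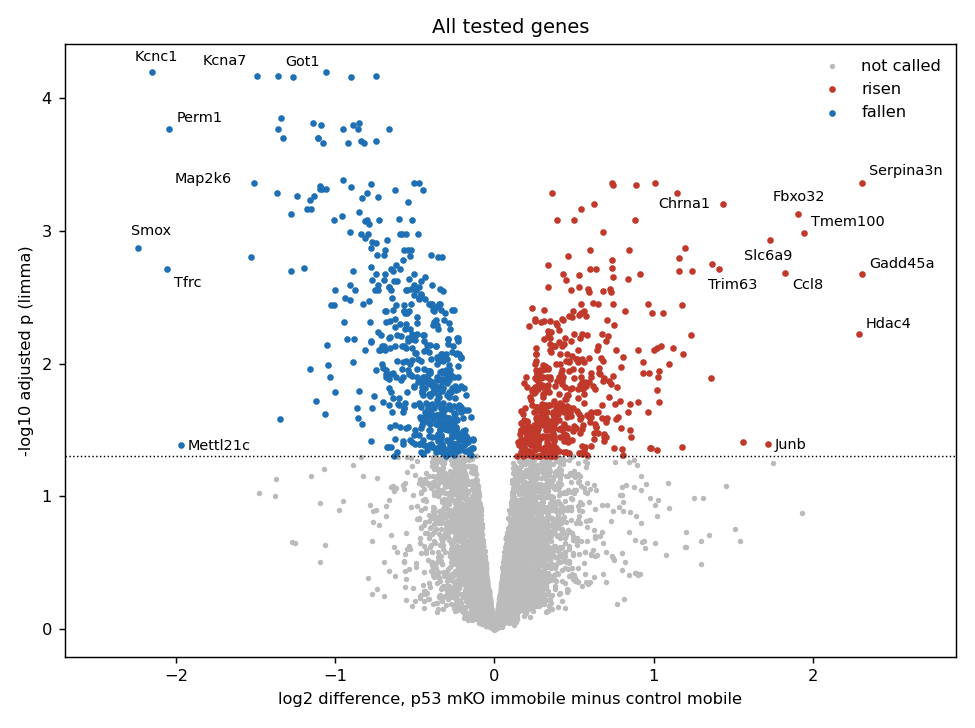
Difference of immobile p53 mKO from mobile control muscle for each of 10842 tested genes (x axis, log2) against −log10 of the limma adjusted p (y axis). Called genes are coloured, 485 risen and 572 fallen, and the dotted line marks an adjusted p of 0.05; Kcnc1, Kcna7 and Got1 have some of the smallest p-values and Serpina3n, Gadd45a and Hdac4 the largest rises.

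Fbxo32 and Trim63, the ligase genes best known in atrophy, rose in immobile p53 mKO muscle. Fbxo32 measured 12.36, 12.24 and 11.72 on the mobile arrays and 14.10, 13.81 and 14.14 on the p53 mKO arrays. Every p53 mKO array lay more than 1 log2 unit above every mobile array. The rise was 1.91 ± 0.17 (SE), or 3.76-fold, with an adjusted p of 0.000739. Trim63 measured 11.58, 11.38 and 11.03 on the mobile arrays and 12.95, 12.69 and 12.59 on the p53 mKO arrays. This was a rise of 1.41 ± 0.16, or 2.66-fold, with an adjusted p of 0.00194. In immobile control muscle, measured against the same mobile arrays, the differences were 1.90 ± 0.17 for Fbxo32 and 1.51 ± 0.16 for Trim63. Between the genotypes in the immobile limb, Fbxo32 differed by 0.01, with a 95% interval from −0.39 to 0.40, and Trim63 by −0.09, from −0.46 to 0.27.

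Of 14 ubiquitin ligases of atrophy tested, 4 had risen and 0 had fallen, beside 4.47% and 5.28% of all genes. The other two were Fbxo30 (MUSA1), at 0.75 ± 0.19, and Fbxo31, at 0.77 ± 0.14. Fbxo31 lost its call without any 1 of the mobile arrays or p53 mKO array 1, and Fbxo30 also without p53 mKO array 2 or 3 or immobile control array 2. The ligase count was 2 without any 1 mobile array or without p53 mKO array 1.

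The proteasome degrades the marked proteins. Among 29 subunits tested, 13 had risen, or 44.8%, and 0 had fallen. The median difference was 0.37, beside 0.00667 over all genes. For 25 of the 29 the p53 mKO arrays all lay above the mobile arrays, beside 19.5% of all genes. Psma5, a subunit of the core particle's outer ring, measured 13.33, 13.24 and 13.23 on the mobile arrays and 14.01, 13.97 and 14.06 on the p53 mKO arrays, a rise of 0.75 ± 0.09 with an adjusted p of 0.00223. Psmd8, of the regulatory lid, rose by 0.68 ± 0.11, and Psmc2, an ATPase of the regulatory base, by 0.58 ± 0.09. Psmb1, of the catalytic inner ring, rose by 0.59 ± 0.07. Averaged over the 29 genes, the 3 p53 mKO arrays lay 0.412, 0.365 and 0.342 above the mean of the mobile arrays, a narrow range, while the immobile control arrays lay at 0.214, 0.466 and 0.346. Without mobile array 2 or 3 the count was 6, and without p53 mKO array 1 it was 8.

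Autophagy carries proteins and organelles to the lysosome. Of 26 genes of autophagy and the lysosome, 4 had risen, or 15.4%, and 0 had fallen, beside 4.47% and 5.28% of all genes. The median was 0.183. Map1lc3b encodes LC3B, the protein that coats autophagosomes. It measured 11.18, 11.20 and 11.00 on the mobile arrays and 11.81, 11.90 and 11.80 on the p53 mKO arrays. On the immobile control arrays it measured 11.21, 11.39 and 11.60, so that the p53 mKO arrays lay above both other groups without overlap. Its rise was 0.71 ± 0.10, with an adjusted p of 0.00468. The other risen genes were Gabarapl1, an LC3 relative, at 0.57 ± 0.14, the cargo receptor Sqstm1 (p62) at 0.64 ± 0.14, and the lysosomal membrane protein Lamp2 at 0.33 ± 0.08. These 3 calls were lost without mobile array 2 or 3 or p53 mKO array 1 or 2, and those of Gabarapl1 and Lamp2 without any 1 of mobile array 1, p53 mKO array 3 or immobile control array 2. Over its 4 probes, Lamp2 differed by −0.22 to 0.33. The autophagy count was 1 or 2 without any 1 mobile array, p53 mKO array or immobile control array 2.

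**Figure D2:**
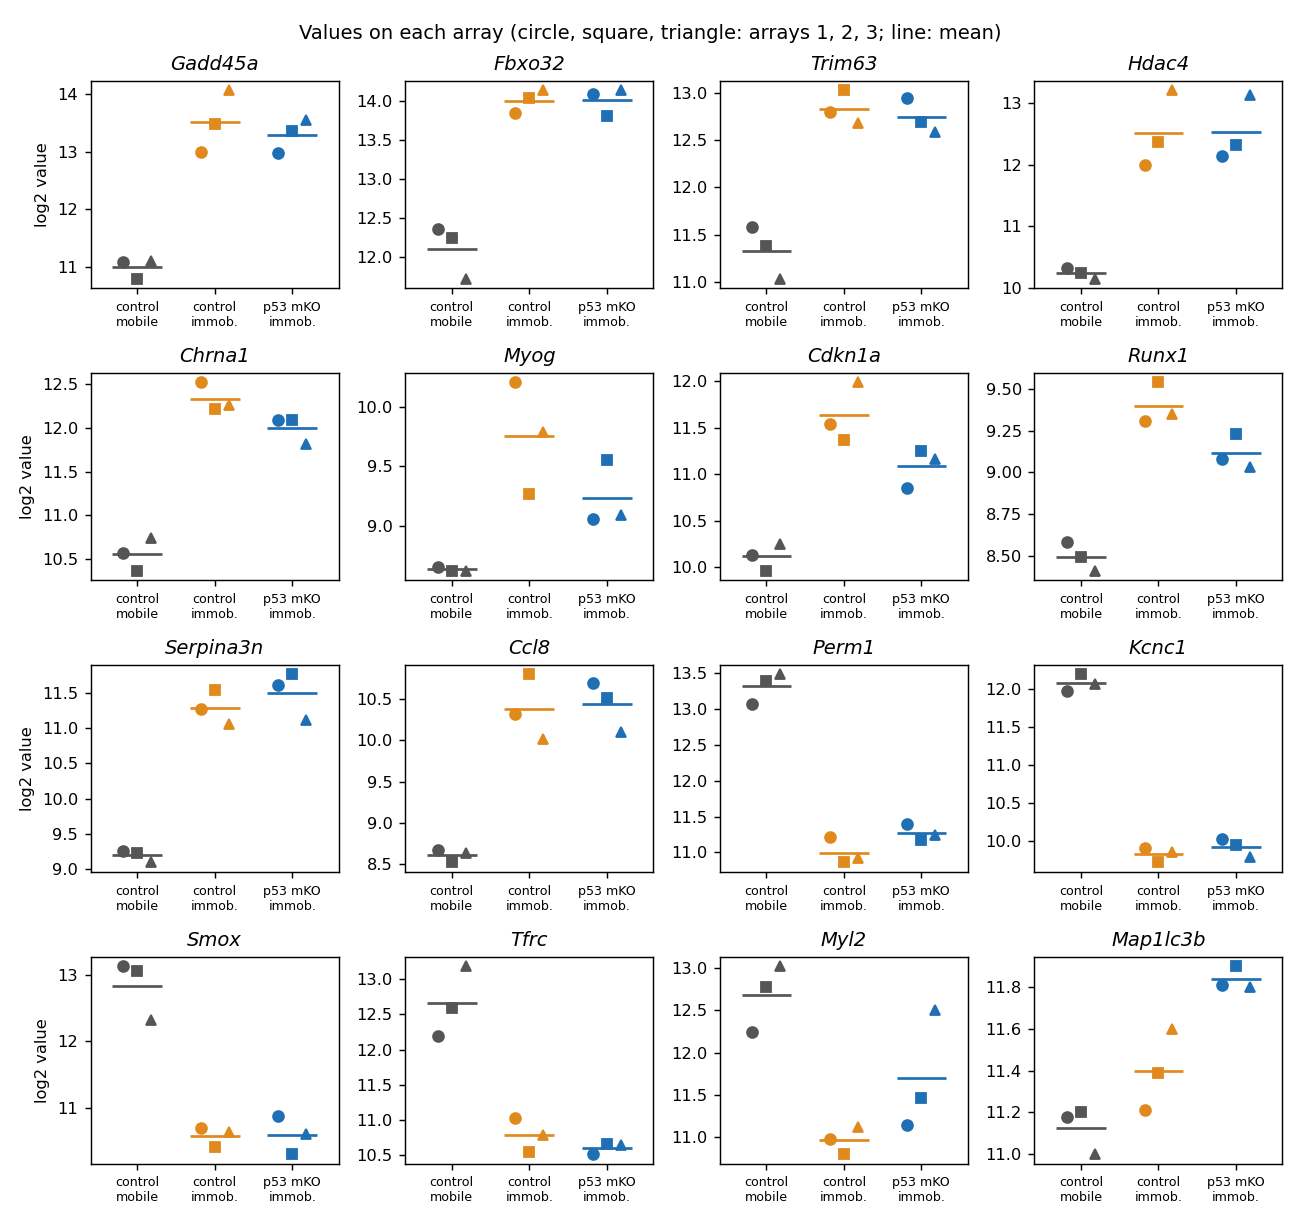
Values of 16 genes on each array (y axis, log2), with circles, squares and triangles for arrays 1, 2 and 3 of each group and a line at the group mean. Fbxo32, Trim63, Gadd45a and Hdac4 lie far above the mobile arrays in both immobile groups, Perm1, Kcnc1, Smox and Tfrc far below, and Cdkn1a, Chrna1, Runx1 and Myog lie between mobile and immobile control means in p53 mKO muscle.

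Muscle that loses its nerve input is known to switch on the genes of the acetylcholine receptor across the whole fibre, through the deacetylase Hdac4 and the myogenic factor Myog. Of 21 genes of this denervation group tested, 7 had risen and 4 had fallen, or 33.3% and 19%, beside 4.47% and 5.28% of all genes. Hdac4 measured 10.33, 10.25 and 10.15 on the mobile arrays and 12.14, 12.33 and 13.13 on the p53 mKO arrays. It was highest on array 3, as it was in the immobile control group, where it measured 12.00, 12.37 and 13.21. The rise was 2.29 ± 0.34, or 4.89-fold, with an adjusted p of 0.00594.

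Chrna1, the alpha subunit of the muscle acetylcholine receptor, measured 10.57, 10.37 and 10.74 on the mobile arrays and 12.09, 12.09 and 11.81 on the p53 mKO arrays. All 3 p53 mKO arrays lay above the mobile arrays and below the immobile control arrays, which measured 12.52, 12.22 and 12.26. The rise was 1.44 ± 0.12, or 2.71-fold, with an adjusted p of 0.000624, and over its 3 probes it ran from 0.22 to 1.44. Other receptor-related rises were 0.80 for Musk, the kinase that organizes the receptor cluster, and 0.61 for Chrnb1, the beta subunit. Runx1, a transcription factor known to rise after denervation, rose by 0.62 ± 0.08, from 8.58, 8.49 and 8.41 to 9.08, 9.23 and 9.03. Myf6 (MRF4), the myogenic factor of adult fibres, rose by 0.68 ± 0.07, with an adjusted p of 0.00102.

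Some members of the same group did not pass or fell. Myog measured 8.65, 8.62 and 8.62 on the mobile arrays and 9.06, 9.55 and 9.09 on the p53 mKO arrays. The groups did not overlap, but the difference of 0.60 ± 0.23 had an adjusted p of 0.151. Over the 2 probes of Myog the difference ran from 0.13 to 0.60. Ncam1, an adhesion molecule of denervated fibres, differed by 0.17 ± 0.07 with an adjusted p of 0.194. Ky, which is needed for the upkeep of muscle and its neuromuscular junction, fell by 0.77 on the log2 scale. Actc1, the cardiac actin that is also made in immature fibres, measured 11.91, 12.68 and 12.35 on the mobile arrays and 11.21, 11.16 and 11.21 on the p53 mKO arrays, a fall with an adjusted p of 0.019. That call was lost without mobile array 2 or 3 or any 1 p53 mKO array. The count of risen denervation genes was 4 without mobile array 2, and the count of fallen ones was 1 without it and 2 without mobile array 1 or 3 or p53 mKO array 1 or 2.

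The window from 250 bases before to 50 after the start of Chrna1 (RefSeq, GRCm38.p6) is shown in part, because myogenic factors bind E-boxes there and its gene is among the large rises. The stretch lies at chr2:73580347-73580460 on the minus strand, upstream of the start. Capitals mark the letters CAGCTG, an E-box of myogenic factors that reads the same on both strands, at −92 and −44 from the start.
Chrna1: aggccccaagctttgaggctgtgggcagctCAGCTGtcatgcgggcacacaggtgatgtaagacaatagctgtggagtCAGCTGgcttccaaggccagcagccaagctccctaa
The letters CAGCTG occurred in 16.3% of all 32851 windows and in 15.9% of the 11289 windows of tested genes. They occurred in 17.3% of those of risen genes and in 18.4% of those of fallen genes. The windows searched for Myog and Runx1 did not hold them.

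Cdkn1a (p21), a main target of p53, rose in the immobile p53 mKO muscle. It measured 10.13, 9.96 and 10.25 on the mobile arrays and 10.85, 11.25 and 11.16 on the p53 mKO arrays. The immobile control arrays, at 11.54, 11.37 and 11.99, lay higher still and did not overlap with the p53 mKO arrays. The rise over mobile muscle was 0.97 ± 0.17, or 1.96-fold, with an adjusted p of 0.0117, and the call was lost without mobile array 2. In immobile control muscle the difference from the same mobile arrays was 1.52 ± 0.17. Over the 3 probes of Cdkn1a, the p53 mKO difference ran from 0.43 to 0.97.

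Gadd45a, a growth arrest gene known as a driver of atrophy and a target of ATF4, is counted here among the p53 targets. Its rise was one of the largest. Gadd45a measured 11.09, 10.79 and 11.10 on the mobile arrays and 12.98, 13.36 and 13.56 on the p53 mKO arrays. The rise was 2.31 ± 0.26, or 4.95-fold, with an adjusted p of 0.00211. Between the genotypes in the immobile limb it differed by −0.22, with a 95% interval from −0.83 to 0.39, or from −0.51 to 0.08 with the arrays paired by number.

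Of 29 p53 targets tested, 4 had risen, or 13.8%, and 2 had fallen, or 6.9%, with a median difference of 0.0833. Over all genes the shares were 4.47% and 5.28%, so the fallen share was near that of all genes. Besides Cdkn1a and Gadd45a, the risen genes were Bbc3 (PUMA), which promotes cell death, at 0.47 ± 0.08, and the kinase Plk2, at 0.39 ± 0.07. Over the 3 probes of Bbc3 the difference ran from 0.04 to 0.47. Tigar, which lowers glycolytic flux, fell by 0.70, and Polk, a DNA polymerase, fell by 0.26. The Tigar call was lost without mobile array 1 or 2 or p53 mKO array 2 or 3. That of Polk was lost without mobile array 1 or 3, p53 mKO array 2 or 3 or immobile control array 2. Mdm2, the ligase that degrades p53, measured 11.38, 11.38 and 11.35 on the mobile arrays and 11.60, 11.57 and 11.88 on the p53 mKO arrays, with an adjusted p of 0.354. Ccng1 differed by −0.20 ± 0.12, with an adjusted p of 0.349. Over its 3 probes the difference ran from −0.89 to −0.20, with limma adjusted p from 0.431 to 0.497 when all probes were fitted.

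ATF4 is made from an mRNA whose translation rises under stress. The difference of its own transcript, Atf4, was −0.37 ± 0.41, with an adjusted p of 0.634. Of 30 ATF4 targets tested, 5 had risen, or 16.7%, and 2 had fallen, or 6.67%, with a median of 0.118. Over all genes the shares were 4.47% and 5.28%, so the fallen share was near that of all genes. Eif4ebp1 (4E-BP1), a brake on translation that insulin signalling releases, measured 12.25, 12.16 and 11.98 on the mobile arrays and 13.37, 13.13 and 13.33 on the p53 mKO arrays. The groups lay well apart, and the rise was 1.15 ± 0.09 with an adjusted p of 0.000514. Slc6a9, a glycine transporter, rose by 1.73 ± 0.17, or 3.32-fold. Ddit3 (CHOP), another stress factor in the group, fell by 0.68, with an adjusted p of 0.0119. Vldlr, at 0.70 ± 0.17, and Nupr1, which fell by 0.60, lost their calls without mobile array 2 or 3 or any 1 p53 mKO array. The count of risen ATF4 targets was 3 without mobile array 2 or 3 or p53 mKO array 1 or 3, and 8 without immobile control array 1.

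In the insulin, IGF, myostatin and Smad group, 4 of 25 genes had risen, or 16%, and 0 had fallen. Over all genes the shares were 4.47% and 5.28%. Smad3, which carries the myostatin and TGF-beta signal to the nucleus, measured 10.42, 10.54 and 10.57 on the mobile arrays and 11.34, 11.32 and 11.87 on the p53 mKO arrays. It rose by 1.00 ± 0.16, or 2-fold, with an adjusted p of 0.00792. Igfbp5, which binds insulin-like growth factors, measured 14.05, 13.89 and 14.16 on the mobile arrays and 14.86, 14.92 and 14.97 on the p53 mKO arrays, a rise of 0.88 ± 0.08. The kinase gene Akt2 rose by 0.71 ± 0.15, a call lost without any 1 mobile array or p53 mKO array 1 or 2.

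**Figure D3:**
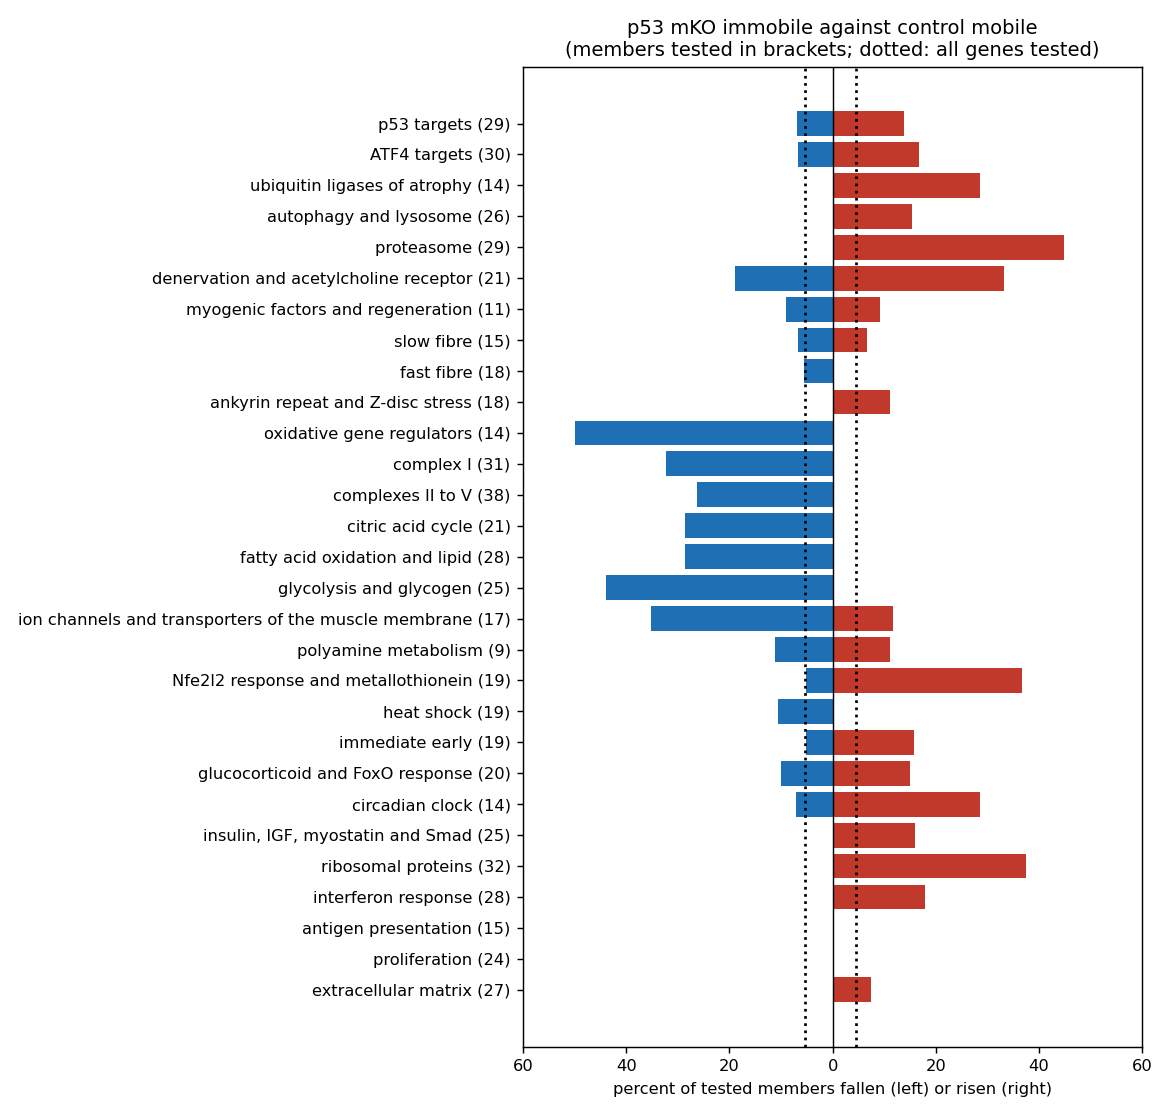
Share of tested members of each gene group called fallen (bars to the left) or risen (bars to the right) in immobile p53 mKO against mobile control muscle, with the number tested in brackets. Dotted lines mark the shares over all genes, 5.28% and 4.47%; the proteasome, at 44.8% risen, and the oxidative regulators, at 50% fallen, stand out to either side.

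Genes of oxidative metabolism were called fallen among both regulators and enzymes, and 0 were called risen. Of 14 regulators tested, 7 had fallen, or 50%, and 0 had risen. Perm1, a muscle gene induced by PGC-1 and the oestrogen-related receptors, measured 13.08, 13.39 and 13.49 on the mobile arrays and 11.40, 11.18 and 11.25 on the p53 mKO arrays. The gap between the nearest arrays exceeded 1 log2 unit, and mobile muscle was 4.12-fold higher, with an adjusted p of 0.000172. Ppargc1a (PGC-1alpha), the coactivator of mitochondrial genes, fell by 0.62, and Ppargc1b (PGC-1beta) fell by 0.78. Esrra, the oestrogen-related receptor alpha, measured 11.62, 11.78 and 11.85 on the mobile arrays and 11.19, 11.20 and 11.31 on the p53 mKO arrays, and Esrrb fell by 0.40. Sirt3, the main mitochondrial deacetylase, fell by 0.59, a call lost without mobile array 2 or 3. The count was at least 5 without any 1 array.

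Part of the Perm1 window (RefSeq, GRCm38.p6) is shown because oestrogen-related receptors, whose genes fell with it, bind the letters AAGGTCA. The stretch lies at chr4:156215695-156215761 on the plus strand. Capitals mark TGACCTT, which is AAGGTCA on the opposite strand, at −202 from the start.
Perm1: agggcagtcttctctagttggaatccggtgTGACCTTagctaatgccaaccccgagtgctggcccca
The letters, searched on both strands, occurred in 4.72% of all windows and in 3.46% of those of tested genes. They occurred in 2.7% of those of risen genes and in 4.85% of those of fallen genes. The windows of Esrra and Cox7a1, a muscle cytochrome oxidase subunit, did not hold them.

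Of 31 genes of respiratory complex I tested, 10 had fallen, or 32.3%, and 0 had risen, with a median of −0.237. The difference was below 0 for 28 of the 31. Ndufa8 measured on average 14.21 ± 0.07 in mobile and 13.70 ± 0.09 in p53 mKO muscle (SD, n = 3). The largest fall among the complex I genes named here was that of Ndufb7, at −0.56 ± 0.08. Averaged over the 31 genes, the p53 mKO arrays lay at −0.282, −0.261 and −0.182 relative to the mobile mean. The count was 6 without mobile array 2. In complexes II to V, 10 of 38 genes had fallen, or 26.3%, and 0 had risen, with a median of −0.158. Sdhc of complex II fell by 0.53, Cyc1 of complex III by 0.65 and Atp5d of ATP synthase by 0.57. Sdhb fell by 0.44, a call lost without any 1 mobile or p53 mKO array. The count was 5 without mobile array 2 or 3 or p53 mKO array 2.

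In the citric acid cycle, 6 of 21 genes had fallen, or 28.6%, and 0 had risen, with a median of −0.237. Idh3a, a subunit of the NAD-dependent isocitrate dehydrogenase, measured 13.26, 13.43 and 13.45 on the mobile arrays and 12.55, 12.46 and 12.62 on the p53 mKO arrays, a fall of 0.84 with an adjusted p of 0.00105. Dlat, of the pyruvate dehydrogenase complex, fell by 0.69. Got1, the cytosolic aspartate aminotransferase of the malate-aspartate shuttle, measured 11.68, 11.67 and 11.79 on the mobile arrays and 10.42, 10.42 and 10.23 on the p53 mKO arrays, and was 2.56-fold higher in mobile muscle with an adjusted p of 6.73e-05. Of 28 genes of fatty acid oxidation and lipid handling, 8 had fallen, or 28.6%, and 0 had risen. Fabp3, which carries fatty acids in the cytosol, fell by 0.69, and Cpt1b, which admits them to mitochondria, fell by 0.40. Without mobile array 2 or 3 the citric acid cycle count was 3 and the fatty acid count 2, and without p53 mKO array 2 the fatty acid count was 3. The fatty acid count was 4 without mobile array 1 or p53 mKO array 1 or 3.

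Of 25 genes of glycolysis and glycogen, 11 had fallen, or 44%, 14 were not called and 0 had risen, with a median of −0.23. Tpi1, triose phosphate isomerase, averaged 15.09 ± 0.07 in mobile and 14.42 ± 0.08 in p53 mKO muscle (SD, n = 3). Gys1, muscle glycogen synthase, measured 10.10, 10.52 and 10.33 on the mobile arrays and 9.48, 9.26 and 9.13 on the p53 mKO arrays, which was 2.04-fold higher in mobile muscle with an adjusted p of 0.00363. Pygm, the glycogen phosphorylase of muscle, fell by 0.53, and Eno3, the muscle enolase, fell by 0.23. The counts without 1 array were 4 without mobile array 2, 6 without mobile array 3, 7 without mobile array 1 or p53 mKO array 2 or 3, and 8 to 11 otherwise.

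Kcnc1 (Kv3.1) measured 11.97, 12.19 and 12.06 on the mobile arrays and 10.03, 9.95 and 9.79 on the p53 mKO arrays. By this probe it was 4.44-fold higher in mobile muscle, with an adjusted p of 6.31e-05, while its second probe differed by −0.19. Kcna7 (Kv1.7), a channel of the heart and skeletal muscle, measured 10.43, 10.66 and 10.59 on the mobile arrays and 9.11, 9.07 and 9.02 on the p53 mKO arrays, a 2.82-fold difference. Kcng4, a channel subunit with no current of its own, fell by 1.33, and its second probe differed by −0.36. Atp1b1, a subunit of the sodium pump, fell by 0.91. Of the 17 channels and transporters of the muscle membrane tested, 6 had fallen, or 35.3%, and 2 had risen, or 11.8%. Over all genes 5.28% had fallen and 4.47% had risen. Cacng1, the gamma subunit of the muscle calcium channel, rose by 0.54 ± 0.10, a call lost without mobile array 2 or 3.

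Of 9 polyamine genes tested, 1 had risen and 1 had fallen, with a median of −0.0333, but both were large changes. Smox, which oxidizes spermine and is known to protect muscle from atrophy, measured 13.13, 13.06 and 12.32 on the mobile arrays and 10.88, 10.31 and 10.61 on the p53 mKO arrays. Mobile muscle was 4.71-fold higher, with an adjusted p of 0.00134. Odc1, which makes the first polyamine, putrescine, rose by 1.23 ± 0.18, from 12.56, 12.05 and 11.83 to 13.34, 13.25 and 13.55. Tfrc, the transferrin receptor that brings iron into cells, measured 12.20, 12.59 and 13.19 on the mobile arrays and 10.51, 10.65 and 10.64 on the p53 mKO arrays. Its spread lay in the mobile arrays, and mobile muscle was 4.17-fold higher, with an adjusted p of 0.00195.

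Fibre-type genes were called at about the rate of all genes, but their averages lay below the mobile arrays. Relative to the mobile mean, slow-fibre genes averaged −0.277 to −0.172 on the p53 mKO arrays and −0.13 to 0.0824 on the mobile arrays. Fast-fibre genes averaged −0.142 to −0.101 and −0.0328 to 0.0217. The median differences were smaller, at −0.0467 and −0.0217. With the array numbers as a block, 4 slow-fibre and 3 fast-fibre genes had fallen. Of 15 slow-fibre genes, 1 had risen and 1 had fallen, or 6.67% each, and of 18 fast-fibre genes, 0 had risen and 1, Pygm, had fallen, or 5.56%, beside 4.47% and 5.28% of all genes. Myoz2, a Z-disc protein of slow fibres, measured 12.10, 12.10 and 12.11 on the mobile arrays and 11.55, 11.57 and 11.64 on the p53 mKO arrays, a fall of 0.52 with an adjusted p of 0.000822. Sln (sarcolipin), which uncouples the calcium pump, rose by 0.75 ± 0.13, a call lost without mobile array 2 or 3. The count of fallen slow-fibre genes was 2 without mobile array 2 or 3 or p53 mKO array 3, and that of fast-fibre genes 2 without p53 mKO array 2 or immobile control array 3. Myl2, the slow regulatory light chain, measured 12.24, 12.77 and 13.02 on the mobile arrays and 11.14, 11.46 and 12.50 on the p53 mKO arrays. p53 mKO array 3 lay within the mobile range, and the difference of −0.98 ± 0.34 had an adjusted p of 0.127. Ankrd1, a stretch-responsive gene, measured 11.72, 10.22 and 10.21 on the mobile arrays and 11.73, 12.90 and 11.89 on the p53 mKO arrays, so that the groups almost touched, and its adjusted p was 0.0837. Mettl21c, a methyltransferase of muscle, fell by 1.97, from 12.98, 12.35 and 12.44 to 11.61, 10.13 and 10.12. That call was lost without any 1 mobile array or p53 mKO array 2 or 3.

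Of 19 genes of the Nfe2l2 (Nrf2) response and the metallothioneins, 7 had risen, or 36.8%, and 1 had fallen, or 5.26%. The median was 0.32. Mt1, a metallothionein that binds zinc and copper, measured 12.88, 12.48 and 12.86 on the mobile arrays and 13.95, 13.87 and 14.12 on the p53 mKO arrays, a rise of 1.24 ± 0.14 with an adjusted p of 0.00202. Gpx3, a secreted glutathione peroxidase, rose by 0.55 ± 0.09, and Txn1, thioredoxin, by 0.49 ± 0.08. Over the 3 probes of Txn1 the difference ran from −0.02 to 0.49. Srxn1, which repairs peroxiredoxins, rose by 1.56 ± 0.38, a call lost without any 1 mobile or p53 mKO array or immobile control array 2. Sod2, the superoxide dismutase of mitochondria, fell by 0.50. The count of risen genes was 3 without mobile array 3 or p53 mKO array 1 or 2 and 4 without mobile array 1 or 2 or p53 mKO array 3.

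Immediate early, clock and glucocorticoid genes were less even among the p53 mKO arrays. Their counts are to be read beside 4.47% risen and 5.28% fallen of all genes. Junb, a partner of Jun in the AP-1 factor, measured 9.42, 9.32 and 9.48 on the mobile arrays and 10.93, 10.42 and 12.02 on the p53 mKO arrays, and it was highest on array 3 in both immobile groups. Its rise of 1.72 ± 0.42 had an adjusted p of 0.0402 and was lost without any 1 mobile array or p53 mKO array 1 or 3. Of 19 immediate early genes 3 had risen, or 15.8%, and 1 had fallen, or 5.26%. The risen count was 0 without any 1 mobile array or p53 mKO array 1 or 3. Of 14 clock genes, 4 had risen, or 28.6%, and 1 had fallen, or 7.14%. Ciart, a clock repressor, rose by 1.10 ± 0.19, from 8.93, 8.93 and 9.11 to 9.99, 9.94 and 10.34. The clock count was 1 or 2 without any 1 mobile or p53 mKO array. In the glucocorticoid and FoxO group, 3 of 20 genes had risen, or 15%, and 2 had fallen, or 10%. The group lay on average 0.0332, 0.0827 and 0.414 above the mobile mean on p53 mKO arrays 1, 2 and 3. For the clock group these were 0.16, 0.282 and 0.451. Without p53 mKO array 3 there was 1 risen gene in each of these 2 groups. The glucocorticoid and FoxO count was also 1 without any 1 mobile array or p53 mKO array 2.

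Of 32 ribosomal protein genes tested, 12 had risen, or 37.5%, and 0 had fallen, with a median of 0.207. Rps24 averaged 14.28 ± 0.04 in mobile and 14.70 ± 0.07 in p53 mKO muscle (SD, n = 3), and Rpl38 averaged 14.72 ± 0.03 and 14.96 ± 0.02. Over the 2 probes of each gene, the difference ran from 0.16 to 0.42 and from 0.13 to 0.24. The count was 2 without mobile array 3, 3 without mobile array 2 or p53 mKO array 1 or 2, and 6 without mobile array 1.

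Genes of macrophages, the scavenging immune cells of tissue, were higher in immobile p53 mKO muscle, and here the call rested on an array of another group. Of 25 macrophage and monocyte markers tested, all 25 were higher and 24 had non-overlapping groups, beside 19.5% of all genes, but 3 were called. Leaving out immobile control array 1, which is not part of the comparison, gave 23 called, and fitting the 6 compared arrays alone also gave 23. Without immobile control array 3 there were 6, and without mobile array 2 or p53 mKO array 2 there was 1. The median difference of the 25 was 0.927. On average the p53 mKO arrays lay 1.23, 1.02 and 0.598 above the mobile mean, while the immobile control arrays lay at 2.05, 0.957 and 0.52. Immobile control array 1 was thus far above the other arrays of its group. The summed linear signal of the markers was 28300 to 35800 on the mobile arrays and 47700 to 86100 on the p53 mKO arrays. The probes of Itgam (CD11b) and Ccr2, which mark incoming monocytes, were near the floor in both groups, at means of 8.33 and 8.32 in mobile and 8.38 and 8.36 in p53 mKO muscle, and were not tested. In whole muscle, more cells of a type and more RNA per cell cannot be told apart.

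The called macrophage markers were Ccl8, Mrc1 and Cd163. Ccl8, a chemokine of monocytes, measured 8.67, 8.52 and 8.63 on the mobile arrays and 10.69, 10.51 and 10.10 on the p53 mKO arrays, a rise of 1.83 ± 0.21, or 3.55-fold. Mrc1 (CD206), a scavenger receptor of resident and repair-type macrophages, measured 10.15, 9.96 and 10.12 against 11.12, 11.42 and 10.80. Cd163, the haemoglobin scavenger receptor, rose by 0.63 ± 0.12. The Mrc1 call was lost without any 1 mobile array or p53 mKO array 1 or 2, and that of Cd163 without mobile array 2 or p53 mKO array 2. Adgre1 (F4/80) measured 9.38, 9.16 and 9.35 on the mobile arrays and 10.78, 10.86 and 10.01 on the p53 mKO arrays, with an adjusted p of 0.102. F13a1, the coagulation factor subunit that such macrophages also make, rose by 1.18 ± 0.15.

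**Figure D4:**
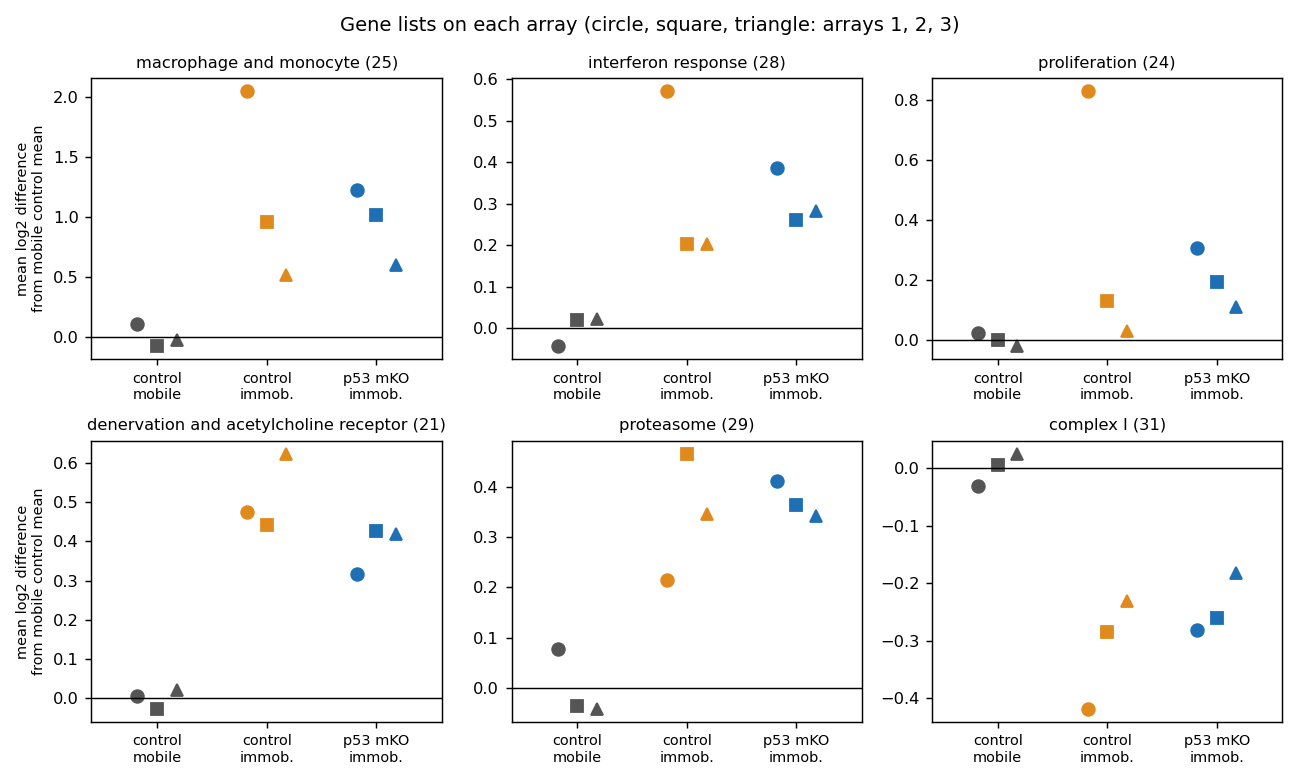
Mean over the tested members of 6 gene groups of the log2 difference from the mobile control mean (y axis), for each array (circles, squares and triangles for arrays 1, 2 and 3). Macrophage, interferon and proliferation genes were highest on immobile control array 1, whereas the proteasome and complex I means of the 3 p53 mKO arrays lie close together and apart from the mobile arrays.

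Interferon response genes were higher in the same arrays. Of 28 tested, 5 had risen, or 17.9%, and 0 had fallen, beside 4.47% and 5.28% of all genes. For 18 the p53 mKO arrays all lay above the mobile arrays, beside 19.5% of all genes, and the median was 0.285. The macrophage markers were high on the same arrays, and their part in this result was not tested. Cxcl10, a chemokine induced by interferon, measured 8.34, 8.40 and 8.33 on the mobile arrays and 9.26, 9.37 and 9.42 on the p53 mKO arrays, a 1.99-fold rise with an adjusted p of 0.00417. Ifit3, an antiviral protein, measured 9.51, 9.52 and 9.51 against 10.61, 10.57 and 10.32, with an adjusted p of 0.0431. Oasl2 rose by 0.98 ± 0.24. The calls of Ifit3 and Oasl2 were lost without any 1 mobile array or p53 mKO array 1 or 2, and that of Ifit3 also without p53 mKO array 3. The count was 15 without immobile control array 1, 1 without any 1 mobile array or p53 mKO array 1, and 2 without p53 mKO array 2 or 3.

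Part of the windows of Cxcl10 and Ifit3 (RefSeq, GRCm38.p6) is shown, because interferon regulatory factors bind repeats of the letters GAAA. Capitals mark GAAA, any 2 bases and GAAA again, or the reverse complement with TTTC in place of GAAA. This motif, and 4 genes to search, were chosen after the values were seen. The Cxcl10 stretch lies at chr5:92349063-92349132 on the minus strand, with the match at −213 from the start. The Ifit3 stretch lies at chr19:34583343-34583446 on the plus strand, with matches at −156 and −122.
Cxcl10: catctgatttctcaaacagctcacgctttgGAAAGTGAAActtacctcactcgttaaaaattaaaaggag
Ifit3: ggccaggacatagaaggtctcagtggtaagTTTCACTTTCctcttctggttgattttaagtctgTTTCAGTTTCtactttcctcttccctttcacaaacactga
Searched on both strands, the motif occurred in 3.44% of all windows and in 3.05% of those of tested genes. It occurred in 5.39% of those of risen genes and in 2.43% of those of fallen genes. The windows of Oasl2 and Trafd1, the other two genes searched, did not hold them.

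Other cell types gave few calls, to be read beside 4.47% risen and 5.28% fallen of all genes. The fallen share was 6.25% of endothelial, 7.69% of smooth muscle and pericyte and 15.4% of fibroblast markers. The risen share was 10% of neutrophil and 20% of mast cell markers and 7.41% of matrix genes. With so few members and calls, these shares do not set the groups apart from all genes. All 15 antigen presentation genes were higher and 0 were called, but 4 were called without immobile control array 1 and 1 without mobile array 1 or p53 mKO array 2. Of 24 proliferation genes, 23 were higher and 0 were called, with a median of 0.177, and 6 were called without immobile control array 1. Of 10 neutrophil markers tested, 1, Lcn2, had risen. Hdc, the histamine-forming enzyme, was the 1 risen gene of 5 mast cell markers. Among 16 endothelial markers, 1, Emcn, had fallen. The 13 markers of smooth muscle and pericytes had 1 fallen gene, Rgs5. Of 13 fibroblast markers, Lox had risen and Gsn and Mfap5 had fallen. Of 27 extracellular matrix genes, 2 had risen, the crosslinking enzymes Lox, at 0.72 ± 0.13, and Loxl1, at 0.65 ± 0.08. The 6 satellite cell markers, 5 Schwann cell markers, 6 adipocyte markers, 5 erythroid markers and 3 lymphocyte markers tested had 0 calls. Of 9 tendon markers, Tppp3 had fallen, by 1.20. The calls of Lox and Hdc were lost without mobile array 2, that of Lox also without p53 mKO array 2, and those of Lcn2, Emcn and Gsn without any 1 of mobile array 1 or p53 mKO array 1 or 2, among others.

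Several large changes lay outside these groups. Serpina3n, a secreted protease inhibitor of the acute phase, measured 9.25, 9.23 and 9.09 on the mobile arrays and 11.61, 11.77 and 11.12 on the p53 mKO arrays. This was the largest rise among the called genes, at 2.31 ± 0.18, or 4.96-fold, with an adjusted p of 0.000432. Tmem100, a membrane protein of the BMP pathway in vessels, rose by 1.94 ± 0.19, from 11.22, 10.69 and 10.58 to 13.07, 12.76 and 12.49. Tgif1, a corepressor of Smad signalling, rose by 1.20 ± 0.12. Mknk2, a kinase of the translation factor eIF4E, rose by 1.12 ± 0.18, and Mmp3, a matrix protease, by 1.19 ± 0.19. Map2k6, a kinase upstream of p38, measured 10.27, 10.05 and 10.42 on the mobile arrays and 8.80, 8.82 and 8.58 on the p53 mKO arrays, a 2.85-fold difference with an adjusted p of 0.000432. Mlf1 fell by 1.37 and Itgb1bp2 (melusin), a muscle chaperone that binds integrin, fell by 1.16.

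For some of the genes named above, the probes of a gene differed in size or in whether they passed. Among the risen genes, the difference over probes ran from 1.53 to 1.91 for Fbxo32, from 0.06 to 0.75 for Fbxo30, from −0.01 to 0.74 for Vldlr and from 0.14 to 0.71 for Akt2. It ran from 0.70 to 1.56 for Srxn1, from −0.01 to 0.63 for Cd163, from 0.21 to 0.99 for Ifit3 and from 0.17 to 0.98 for Oasl2. For Tgif1 it ran from 0.13 to 1.20 and for Mmp3 from 0.50 to 1.19. Among the fallen genes it ran from −0.53 to −0.07 for Sdhc, from −0.44 to −0.10 for Sdhb, from −0.42 to −0.40 for Cpt1b and from −0.90 to −0.43 for Tpi1. Of these genes, Vldlr and Cd163 had a probe of the opposite sign.

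Immobile p53 mKO and immobile control muscle were then compared with each other, which is the test of what differed by genotype in the immobile limb. At an adjusted p under 0.05 by limma, 0 of 10842 genes differed, which is 0.0%. At an unadjusted p under 0.05, 319 genes, or 2.94%, passed. With the array numbers as a block, which pair these groups, the adjusted count was again 0 and the unadjusted count was 438, or 712 when the 6 immobile arrays were fitted alone. The median half-width of the 95% intervals of this difference was 0.156. Against the same mobile arrays, immobile control muscle had 553 risen genes, or 5.1%, and 690 fallen genes, or 6.36%. The mobile arrays are shared, so these counts and those of p53 mKO muscle are not independent of each other.

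The intervals show how large a difference each gene leaves room for, and they are not adjusted for the number of genes. Genes open to naming included the extremes of this same difference, so some intervals that exclude 0 come from that choice. In the unpaired fit Cdkn1a differed by −0.55, lower in p53 mKO muscle, with a 95% interval from −0.94 to −0.15. Intervals with the arrays paired by number are not given here for Cdkn1a, Runx1, Chrna1, Sln and Ncam1. For Runx1 the difference was −0.29, from −0.47 to −0.10, and for Chrna1 it was −0.34, from −0.62 to −0.05. Myog differed by −0.52, from −1.04 to 0.00, an interval that ran from −1.31 to 0.27 with the arrays paired by number, and Sln by −0.40, from −0.70 to −0.09. Ncam1 differed by −0.23, from −0.39 to −0.07. Cdkn1a is a p53 target that is also in the denervation list, and Runx1, Chrna1, Myog and Ncam1 are in that list too. Their means were lower in p53 mKO than in control immobile muscle, and 0 of them passed the adjusted test.

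Other genes were higher at their means in p53 mKO than in control immobile muscle, and 0 of them passed the adjusted test either. Map1lc3b was higher by 0.44, with a 95% interval from 0.21 to 0.66, and Tax1bp1, an autophagy cargo receptor, by 0.35, from 0.11 to 0.59. Myoz2 was higher by 0.27, from 0.16 to 0.38, with the p53 mKO arrays at 11.55, 11.57 and 11.64 and the immobile control arrays at 11.39, 11.34 and 11.23. For Esrra the difference was 0.29, from 0.11 to 0.47, and for Uqcrb, of complex III, 0.18, from 0.10 to 0.26. In these 3 genes both immobile groups lay below mobile muscle. The clock factor Tef was higher by 0.34, from 0.05 to 0.63, though over its 2 probes the rise over mobile muscle ran from −0.17 to 0.60. Without adjustment, the interval excluded 0 for 93 of the 1057 genes called against mobile muscle, or 8.8%, beside 2.94% of all genes. Those genes were chosen with the same p53 mKO arrays, so nothing can be read from the larger share.

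For other leading genes the interval included 0. The half-widths for Igfbp5, Eif4ebp1, Idh3a, Kcnc1 and Psma5 were above the median of 0.156, and differences within these intervals remain possible. Igfbp5 differed by 0.00, from −0.19 to 0.19, Eif4ebp1 by 0.01, from −0.21 to 0.23, and Idh3a by −0.02, from −0.20 to 0.17. Kcnc1 differed by 0.09, from −0.10 to 0.29, and Psma5 by −0.06, from −0.26 to 0.14. For Hdac4 the interval was wide, from −0.77 to 0.78, but from −0.15 to 0.16 with the arrays paired by number. Smox was alike, from −0.52 to 0.54 unpaired and from −0.17 to 0.19 paired.

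**Figure D5:**
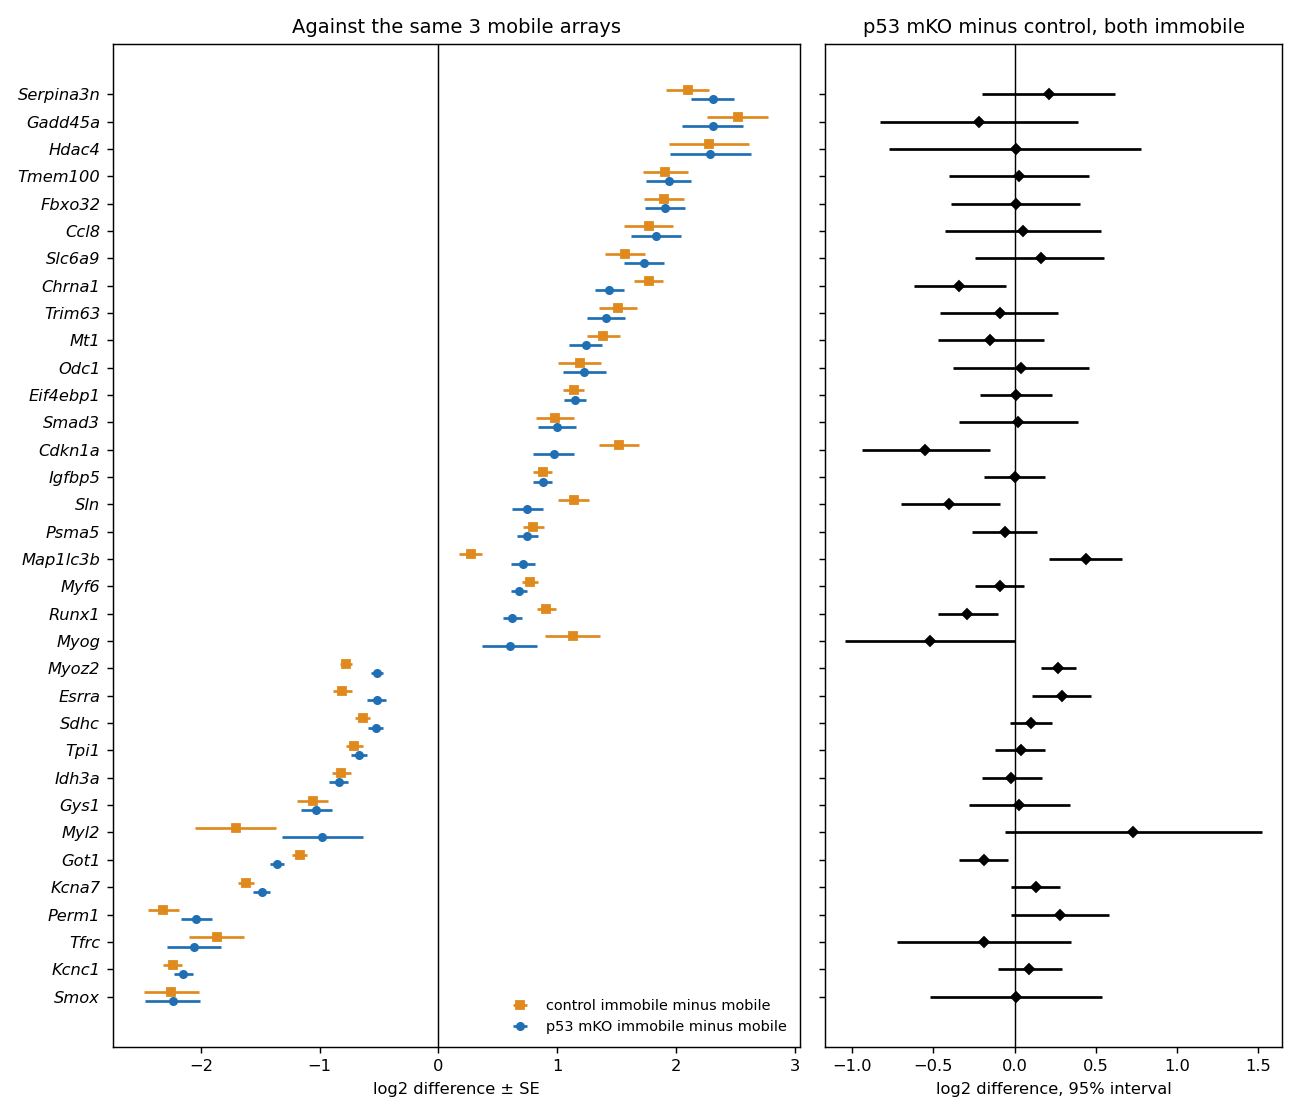
Left, difference from the same 3 mobile control arrays (x axis, log2, bars 1 SE) of immobile p53 mKO (circles) and immobile control muscle (squares) for named genes. Right, p53 mKO minus control among immobile arrays with its 95% interval from the unpaired fit, which lies below 0 for Cdkn1a, Runx1, Chrna1 and Sln, above 0 for Map1lc3b, Myoz2 and Esrra, and includes 0 for Fbxo32, Gadd45a, Hdac4 and Smox.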

How the data were processed

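Tibialis anterior RNA was measured on 17 single-colour bead arrays, 1 per sample. TRIzol extraction, column clean-up with DNase, amplification and biotin labelling were used, per the labels' protocols. The authors deposited log values, read here as log2 because of their range, 8.21 to 15.61. The base, the normalization and the background correction are not given in the sources used here. Medians of the 6 compared arrays were 8.48 to 8.49, and precision is limited by how few arrays there are.

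Of 25697 probes, 23978 had 1 gene symbol, 0 had several and 1719 had none. Symbols were updated by gene identifier, 99.9% of which matched the reference. Each of 16593 genes was represented by its probe with the highest mean over 17 arrays. Genes above the 40th percentile of the array on at least 3 of 9 arrays were tested (10842). limma 3.58.1 in R 4.3.3 fitted the 9 immobilization arrays in 3 groups, with Benjamini-Hochberg adjustment over all tested genes and a threshold of 0.05. The fit was also run on simulated data with independent noise for each gene and array. The real arrays share deviations across genes, so that run does not show the error rate in these data.

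Which limbs share a mouse is not in the labels, so p-values measure spread between arrays and perhaps not between animals. Array numbers were checked for pairing by the correlation of deviations from group means. Same-numbered immobile arrays of the 2 genotypes correlated at 0.621, 0.484 and 0.813, and were taken as pairs on this evidence from the data. Mobile and p53 mKO arrays were not.

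The comparison, the 42 gene lists and the tests were chosen with earlier results of these data known. Genes open to naming were the 25 largest rises and 25 largest falls with non-overlapping groups, the 6 members of smallest p in each list, the extremes of the genotype difference, and a fixed set. The text prints a selection of the 275. Musk and Chrnb1 were named after their values were seen. RefSeq promoter windows were found for 10 of 14 genes looked up. Lists share genes, and no set test was run. A fold change is 2 to the power of the log2 difference. The alternatives were other filters, scalings, probe choices, variance models, blocks and arrays left out.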

Additional observations from a re-analysis of the deposited data

How the results depend on the processing

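Of the 161 called genes among the 275 open to naming, 0 changed direction under any alternative and 94 kept their call throughout. The risen count of 485 was 921 with the 6 compared arrays alone and 1138 with array weights, and 158 to 878 with 1 array left out. The fallen count of 572 was 1066 with array weights and 288 to 686 with 1 array left out. For immobile control against mobile muscle the count of 1243 was 2797 with array weights and 620 to 1287 with 1 array left out. No other alternative moved these counts by over 1.5 times, and the count for p53 mKO against control immobile muscle was 0 in each. The array weights were lowest for immobile control arrays 1 and 3 and p53 mKO array 3, at 0.324, 0.34 and 0.389; the cause of the larger counts was not tested.

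Mobile and p53 mKO arrays with the same number had deviations correlating at 0.177, −0.133 and 0.102, so the numbers do not pair them. With the replicate block the counts were 590 risen, 705 fallen and 1601 for immobile control against mobile muscle. Between the immobile groups the block changed no call. Quantile normalization gave 484 risen and 577 fallen genes, median centring 492 and 587, and no filter 417 and 548. Leaving out both immobile arrays numbered 3, chosen after seeing the data, gave 548 and 698. Probes near the floor limit what can be seen of dim genes.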
